A study of Mus musculus with 2 samples.

Results

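Of the 12556 peaks in the deposited list of EHMT2 ChIP-exo peaks in mouse embryonic stem cells (mESCs), 1123 were repeat-poor peaks in the bodies of protein-coding genes. A peak entered this set when it lay on chromosomes 1 to 19 or X, when less than 50% of its bases were soft-masked (lower case, the assembly's mark for repeats) in GRCm38, when its summit lay inside a protein-coding gene of GENCODE vM21, and when the summit was outside the promoter window of every annotated gene, from 2.5 kb upstream to 0.5 kb downstream of the transcription start site (TSS). The list is shorter than the number of ChIP-exo peaks the study states, and whether it is the same set of calls was not established. It held 12541 peaks on these chromosomes, of which 2338 were repeat-poor. The repeat-poor peaks that were not in the set comprised 881 peaks outside both protein-coding genes and promoters and 334 peaks in promoter windows.

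The cells were of an EHMT2-dTAG-mcherry line on a BL6/129 hybrid background, made from KH2 mESCs, in which a degron tag and HA epitopes had been added to the end of endogenous EHMT2 and mCherry served as a separate reporter. All cells had received DMSO for 24 h, so EHMT2 had not been degraded, and were grown on feeders with serum and LIF. ChIP-exo, in which an exonuclease trims immunoprecipitated DNA towards the crosslinked protein, was done with an anti-HA antibody on 10000000 cells for each of 2 replicates, which formed 1 group. The fragments of both replicates were merged before peak calling, so no value below has a replicate error, no condition was compared and no test between samples could be made. The labels do not say whether the replicates came from separate clones. No ChIP-exo library from cells lacking EHMT2 or from a control antibody was analysed here, so the fragments that would be recovered at these sites without EHMT2 were not measured.

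EHMT2, also called G9a, is the histone methyltransferase that, with its partner GLP, places dimethylation on lysine 9 of histone H3 (H3K9me2), a mark of silent chromatin that covers long domains. It has no sequence-specific DNA-binding domain of its own and is brought to chromatin by zinc finger proteins and other partners. In mESCs it is known for silencing genes and retroelements, so its sites in gene bodies with little masked sequence are the part of its map that the masked repeats do not describe.

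The repeat-poor gene-body sites had a feature that soft-masking did not record. At 668 of the 1123 summits (59.5%, 95% Wilson interval 56.6 to 62.3%), the DNA within 200 bp held a tandem array. In such an array a unit of 8 to 150 bp was repeated head to tail, and the array did not always include the summit itself. Such minisatellites were searched for after the peaks had been seen, as an ungapped match of the sequence to itself. To show what such a summit looks like, 160 bp around the summits of the 5 array peaks with the highest −log10 q are given here as the plus strand of mm10, with every other repeat unit in capitals:
Frmpd1 (chr4:45193528-45193687): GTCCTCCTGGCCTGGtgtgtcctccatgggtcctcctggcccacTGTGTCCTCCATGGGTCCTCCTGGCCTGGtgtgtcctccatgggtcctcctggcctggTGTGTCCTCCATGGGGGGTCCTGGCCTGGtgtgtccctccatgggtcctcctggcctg
Hgsnat (chr8:25969594-25969753): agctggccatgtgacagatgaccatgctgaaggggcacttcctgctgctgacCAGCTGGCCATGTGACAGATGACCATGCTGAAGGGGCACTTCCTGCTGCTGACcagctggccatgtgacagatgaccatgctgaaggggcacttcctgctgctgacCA
Cyth3 (chr5:143688833-143688992): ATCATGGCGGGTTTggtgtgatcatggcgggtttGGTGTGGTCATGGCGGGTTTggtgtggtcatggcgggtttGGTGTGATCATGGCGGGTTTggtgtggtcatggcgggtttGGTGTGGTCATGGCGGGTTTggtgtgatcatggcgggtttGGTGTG
Mtmr10 (chr7:64300179-64300338): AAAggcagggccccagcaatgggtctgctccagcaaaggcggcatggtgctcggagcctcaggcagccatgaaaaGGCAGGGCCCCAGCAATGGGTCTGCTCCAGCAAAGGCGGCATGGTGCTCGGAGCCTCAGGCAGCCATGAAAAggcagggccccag
Sec16b (chr1:157559013-157559172): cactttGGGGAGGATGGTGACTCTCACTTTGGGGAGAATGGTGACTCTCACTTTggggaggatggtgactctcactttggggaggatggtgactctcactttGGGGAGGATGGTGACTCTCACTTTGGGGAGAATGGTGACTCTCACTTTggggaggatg

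All 5 lay in introns. Frmpd1 encodes a FERM and PDZ domain protein, and its array in intron 1 of 15 had a 29-bp unit. Hgsnat encodes a lysosomal acetyltransferase of heparan sulphate breakdown and held a 53-bp unit in intron 4 of 17. Cyth3, an exchange factor for ARF GTPases, held a 20-bp unit in intron 4 of 12. Mtmr10, a myotubularin-related protein, held a 72-bp unit in intron 4 of 15. Sec16b, a protein of export from the endoplasmic reticulum, held a 48-bp unit in intron 19 of 27. The unit was taken as the spacing with the best score and can therefore be a multiple of a shorter repeat.

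Because a read from a repeated unit can be placed on several copies, the 5 members with the highest −log10 q among those whose central 50 bp occurred once in the genome are shown in the same way, with no capitals where no array was found:
Kcnip4 (chr5:48418030-48418189): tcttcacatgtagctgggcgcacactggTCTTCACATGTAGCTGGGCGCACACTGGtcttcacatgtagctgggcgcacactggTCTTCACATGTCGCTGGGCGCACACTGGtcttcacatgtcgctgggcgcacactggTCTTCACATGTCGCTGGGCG
Rell1 (chr5:63927429-63927588): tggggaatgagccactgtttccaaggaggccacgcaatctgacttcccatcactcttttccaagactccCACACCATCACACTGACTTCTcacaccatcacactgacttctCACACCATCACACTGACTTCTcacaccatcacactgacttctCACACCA
Camta1 (chr4:151604713-151604872): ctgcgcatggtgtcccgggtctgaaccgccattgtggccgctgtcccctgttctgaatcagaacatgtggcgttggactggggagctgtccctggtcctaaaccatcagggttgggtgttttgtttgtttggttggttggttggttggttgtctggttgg
Zmat4 (chr8:23934629-23934788): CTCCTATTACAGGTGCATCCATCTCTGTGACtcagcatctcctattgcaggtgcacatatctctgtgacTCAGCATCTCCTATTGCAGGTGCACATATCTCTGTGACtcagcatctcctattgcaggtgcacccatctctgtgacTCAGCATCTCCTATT
Fam19a4 (chr6:97011417-97011576): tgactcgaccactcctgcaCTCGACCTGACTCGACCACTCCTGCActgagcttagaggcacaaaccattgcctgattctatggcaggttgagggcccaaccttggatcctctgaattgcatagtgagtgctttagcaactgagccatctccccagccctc

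These were intronic as well, in intron 4 of 8 of Kcnip4 (a potassium channel-interacting protein), intron 4 of 6 of Rell1, intron 3 of 24 of Camta1 (a calmodulin-binding transcription activator), intron 5 of 7 of Zmat4 and intron 3 of 5 of Fam19a4. Of the 5, only the Camta1 summit had no tandem array within 200 bp. In Rell1 and Fam19a4 the array covered only part of the printed bases, and the rest is in lower case although not repeated. The printed part of the Fam19a4 array ended before the summit.

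Signal at the members was low in absolute terms. The number of fragments stacked over a summit was recovered from the deposited fold enrichment and p-value, and had a single whole-number solution for all 1123 members. The median was 6 fragments (quartiles 5 and 8, range 4 to 151), over a median local background of 0.401 fragments. The authors' fold enrichment, the ratio of the pileup plus 1 to the background plus 1, had a median of 4.54 (quartiles 4.02 and 5.65, range 2.31 to 32.3). At 729 members (64.9%, 62.1 to 67.7%) the pileup was 6 or fewer fragments. Repeat-poor peaks outside genes had a median of 5 fragments and a fold of 4.50.

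The strongest members were in arrays. The Frmpd1 peak had 151 fragments (fold 32.3, −log10 q 175), while the next, in intron 2 of Sspn (sarcospan, of the dystrophin-glycoprotein complex), had 45 (fold 20.2, −log10 q 47.7). The Hgsnat peak had 33 fragments, and the Cyth3 and Mtmr10 peaks 23 each. Sec16b and Ncbp3 (a cap-binding protein) had 22 fragments, Hmgb1 (a DNA-bending chromatin protein) 20, Kcnip4 21 and Ak5 (an adenylate kinase) 26. Of these 10 members, 9 were in tandem arrays and Sspn was not. The Frmpd1 peak thus stood apart from all others, and 30.4% of its bases were soft-masked.

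The share of array peaks followed the strength of the peak. It was 42.5% (38.6 to 46.5%) of the 605 members with a −log10 q under 3, 62.7% of the 110 members from 3 to 4, and 76.2% of the 147 from 4 to 5. Above 6 it lay between 88.9% and 92.9% in each class, of 27 to 89 members. By fragments, arrays accounted for 37.3% of the 249 members with 4 fragments and for 92.6% of the 27 members with 14 to 19. The 16 members with 20 or more fragments held 11 in arrays. A lower share among weak peaks was therefore found on both scales, which rest on the same fragments.

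**Figure D1:**
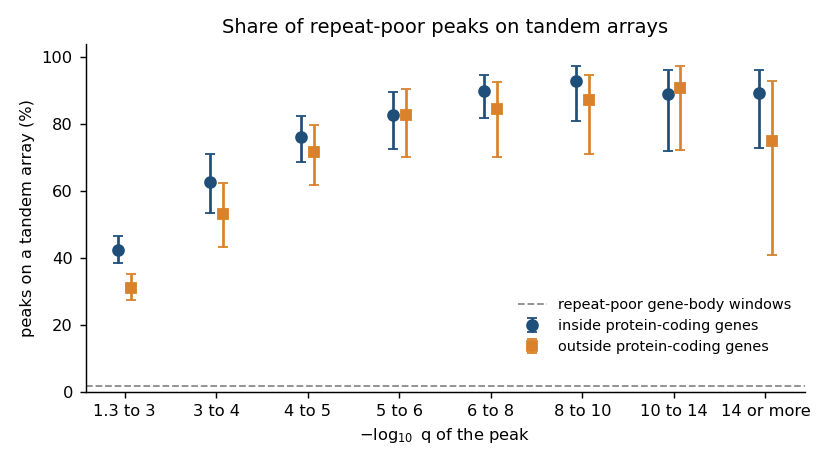
Percentage of repeat-poor peaks on a tandem array (vertical axis) by class of −log10 q (horizontal axis), for peaks inside protein-coding genes (circles) and outside them (squares), with 95% Wilson intervals. Among peaks inside genes the share rose from 42.5% below 3 to 92.9% between 8 and 10, against 1.60% of repeat-poor gene-body windows (dashed line).

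**Figure D2:**
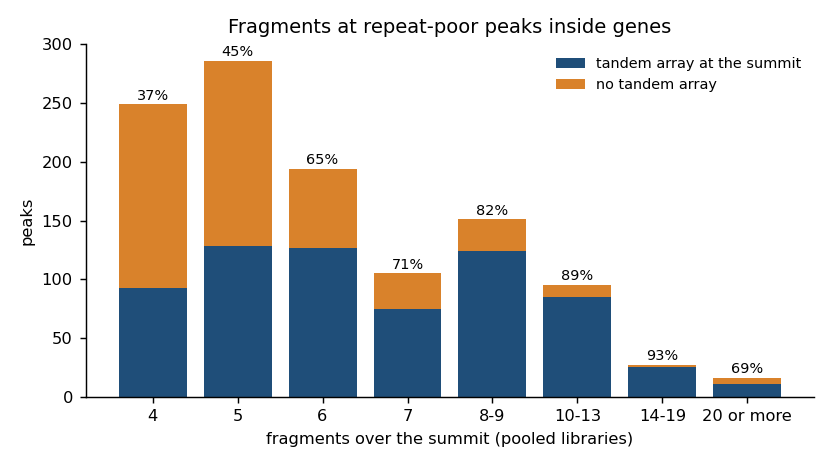
Number of repeat-poor gene-body peaks (bars) by the number of fragments over the summit in the pooled libraries, split into peaks with a tandem array (dark) and without (light). The percentage above each bar is the array share, which was 37.3% at 4 fragments and 92.6% at 14 to 19.

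These shares were set against the sequence in which a member could have fallen. The gene bodies were divided into 200-bp windows, of which 3908178 (782 Mb) met the same limits on masking, gene and promoter. Of these windows, 1 in 10 was searched for arrays in the same way, and 1.60% (1.56 to 1.64%) of 390879 held one. Outside genes the corresponding window share was 1.73%, and 416 of the 881 peaks (47.2%, 43.9 to 50.5%) had an array. No test was made, since peaks of 1 pooled list are not replicates. Intervals on shares (Wilson) and on densities (exact Poisson) are 95% intervals and cover counting error only.

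Expressed as density, members occurred at 1.44 per Mb of eligible gene body (1.35 to 1.52). In windows without an array the density was 0.591 per Mb (0.538 to 0.648), and in windows with one it was 53.5 per Mb (49.5 to 57.7), a ratio of 90.4 (80.1 to 102). The density climbed with the array score, which counts matching bases and charges 3 for each mismatch. It was 9.69 per Mb at scores from 50 to under 100, 137 from 100 to under 200, 346 from 200 to under 300 and 421 per Mb (338 to 517) at 300 or more. Arrays with a score under 100 thus had a lower density than all higher classes, with intervals that did not overlap theirs.

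**Figure D3:**
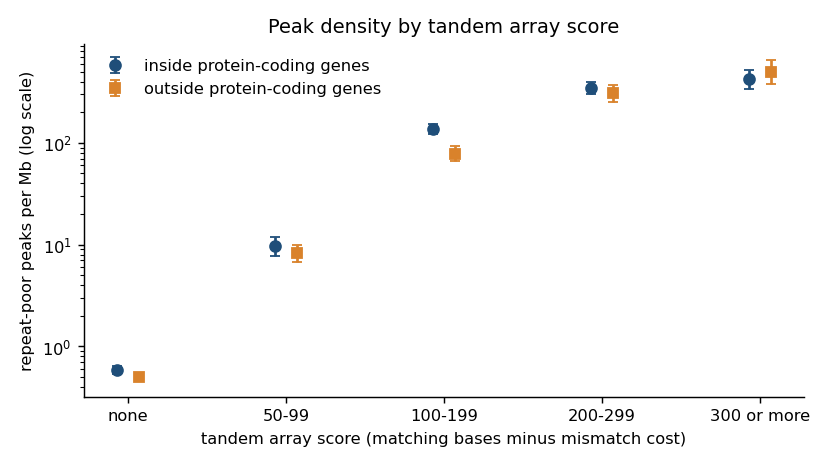
Repeat-poor peaks per Mb of eligible sequence (vertical axis, log scale) by tandem array score (horizontal axis), inside (circles) and outside (squares) protein-coding genes, with exact 95% Poisson intervals. Inside genes the density went from 0.591 per Mb without an array to 421 per Mb at scores of 300 or more.

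With all array scores pooled, the excess of density inside genes over outside was larger in arrays than elsewhere. Repeat-poor sequence outside genes held 0.941 peaks per Mb (0.880 to 1.01), so that the ratio of inside to outside was 1.53 (1.40 to 1.67). In windows with an array the ratio was 2.09 (1.84 to 2.36), and in windows without it was 1.17 (1.03 to 1.33). The pooled array ratio mixes scores, since scores under 100 made up 9.6 of 12.5 Mb of array windows inside and 13.9 of 16.2 Mb outside. From 100 to under 200 the density was 137 per Mb inside (122 to 154) and 78.5 outside (66.3 to 92.3). In the other classes the intervals overlapped, with 9.69 inside and 8.19 outside under 100, and 346 and 307 from 200 to under 300. At array scores of 300 or more the order turned, with 421 per Mb inside and 500 per Mb outside (377 to 651). Array units in windows were also longer inside genes, with a median of 12 bp against 9 bp outside.

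The arrays under the members varied in length and were mostly regular. The repeat unit had a median of 37 bp (quartiles 26 and 52 bp), whereas arrays in gene-body windows had a median unit of 12 bp. An array extended over a median of 358 bp (226 to 591 bp between quartiles, with 58 bp as the shortest and 2822 bp as the longest) and held a median of 9.86 units. The fewest was 1.66 units, and 615 of the 668 arrays (92.1%) had 3 or more. Neighbouring units were identical at a median of 97.8% of bases (95.3 to 99.2%). The median array peak lay within its array over 86% of its width, and 527 of 668 summits (78.9%) were inside the array itself. By unit length, density was 6.76 members per Mb of array for units of 8 to 12 bp (4.93 to 9.04), 61.5 for 13 to 20 bp, 103 for 21 to 30 bp, 128 for 31 to 50 bp (113 to 144), 103 for 51 to 80 bp and 112 for 81 to 150 bp. Units of 8 to 12 bp thus stood below the rest, while the 4 classes above 20 bp had intervals that overlapped.

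**Figure D4:**
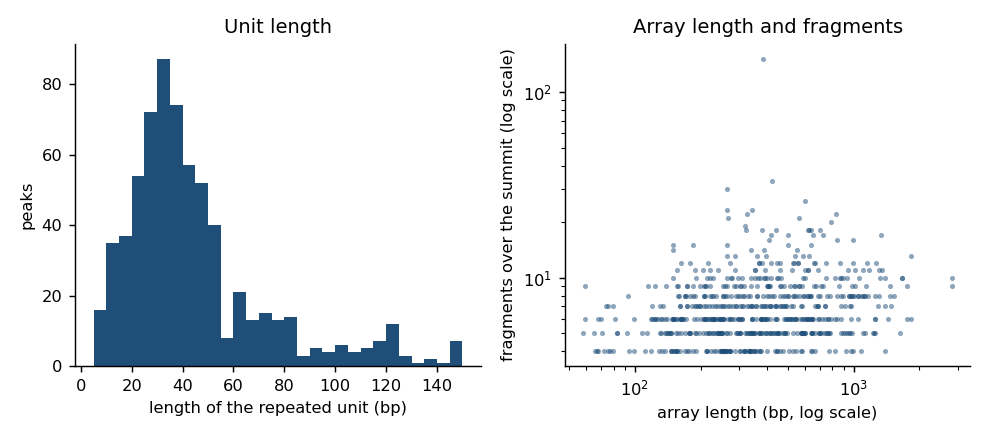
Length of the repeated unit in the 668 array members (left, number of peaks in 5-bp bins) and, for each of them, fragments over the summit against array length (right, both axes logarithmic). Units centred on a median of 37 bp, and the point at 151 fragments is Frmpd1.

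Longer arrays had slightly higher peaks. The 64 arrays under 150 bp had a median of 5 fragments (quartiles 4 and 6), the 235 arrays of 300 to 600 bp had 7 (5 to 9), and the 30 arrays of 1200 bp or more had 8 (6 to 10). The quartile ranges of neighbouring classes overlapped. Fold changed less, from a median of 4.54 in the shortest class to 5.39 in the longest. The share of peaks whose central 50 bp occurred once in the genome fell in the same 3 classes, from 81.25% to 36.6% and 10%. Its part in the pileup was not tested.

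The arrays did not share a sequence with each other. When all members were aligned to one another (at least 80 bp at 80% identity), 1062 of the 1123 aligned to no other member, and the other 61 fell into 29 families of 2 or 3. In 26 of these families all members were arrays, and each such family lay within a single gene. Mocos, the molybdenum cofactor sulphurase gene, had 3 arrays of one family. None of the members aligned to the mitochondrial genome. Among the 2076 words of 6 bases counted with their reverse complements, the word most in excess at the 575 arrays with a score of at least 100 was GAGGAC, found at 10.3% of them and in 6.91% of 1447 such gene-body windows. The most frequent word, CACACA, was at 16.9% of member arrays and in 20.9% of window arrays.

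Only 3 families had members in different genes, and none of these were arrays. One joined Gm8890, Speer1 and 4933402N22Rik on chromosome 5, related gene copies whose peaks aligned to each other, so that their reads may be exchanged. Another joined the coding sequences of Tuba1a and Tuba1c, the alpha-tubulin genes. The third joined the peaks in Sspn, Kcnip1 and Spata5, introns on 3 chromosomes that shared a stretch of 120 bp. This stretch is printed in the orientation of the Sspn copy, with capitals for the bases at which the other copies differ from it:
Sspn (chr6:145932884-145933003): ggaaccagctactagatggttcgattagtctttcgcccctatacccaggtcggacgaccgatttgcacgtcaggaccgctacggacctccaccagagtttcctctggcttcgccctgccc
Kcnip1 (chr11:33754968-33755087): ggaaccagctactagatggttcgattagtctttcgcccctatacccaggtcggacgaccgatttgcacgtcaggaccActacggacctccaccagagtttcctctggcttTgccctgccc
Spata5 (chr3:37481508-37481627): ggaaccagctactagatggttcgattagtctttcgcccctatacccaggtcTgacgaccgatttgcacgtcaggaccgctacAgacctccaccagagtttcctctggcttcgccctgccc

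The Spata5 copy is on the minus strand, and both other copies equalled Sspn at 118 of 120 bases. The stretch lay wholly inside the Sspn peak but only partly inside the Kcnip1 and Spata5 peaks. The 50 bp at the summit occurred 7 times in the assembly for Sspn and 11 times for Kcnip1 (a potassium channel-interacting protein) and for Spata5 (an AAA ATPase). The Sspn peak had 45 fragments, the Kcnip1 peak 12 and the Spata5 peak 8. The 200 bp around each of these summits was rich in CpG, with an observed over expected CpG of 0.867, 1.08 and 0.95, where the median member had 0.155. The shared stretch of 120 bp resembles ribosomal RNA sequence, a likeness that the references used here could not settle. Whether the fragments of these peaks came from the introns is therefore uncertain. How many of the fragments came from other copies of the stretch cannot be told apart.

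Single-copy summits were less common at arrays. The central 50 bp occurred once in the assembly at 715 members (63.7%, 60.8 to 66.4%) and the central 100 bp at 913 (81.3%). Of the 668 array members, 283 (42.4%) had a single-copy 50 bp, against 432 of the 455 other members (94.9%). Array members with a single-copy summit had a median fold of 4.79, those with a repeated summit 5.47, and the single-copy members without an array 4.27. With members of single-copy summit alone, 39.6% (36.1 to 43.2%) were in arrays. In the files, a read that matched several sites equally was written once at a site chosen at random, and the part of this step in the array result was not tested.

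The members without an array were weaker than those with one. The 455 peaks had a median of 5 fragments (quartiles 4 and 6) and a fold of 4.27, and 381 of them (83.7%) had 6 or fewer fragments. The strongest after Sspn, chosen after its values were seen, was a peak in intron 1 of Def8 with 54 fragments, but a fold of only 5.04 over a high local background and 41.1% soft-masked bases. Next came the Camta1 peak printed above, with 20 fragments and a fold of 10.8.

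Base composition differed between both kinds of member and the gene body. GC content in the 200 bp around the summit averaged 49.7% ± 7.85 (SD over 1123 peaks), against 42.8% ± 8.08 over all eligible gene-body windows. Array members averaged 51.4%, while windows with an array averaged 45.4%. Members without an array averaged 47.2%, and windows without one 42.8%. The density of members without an array rose with GC, from 0.230 per Mb in windows under 35% GC (0.155 to 0.328) to 2.29 per Mb at 60% or more (1.49 to 3.35). The density of array members per Mb of array rose likewise, from 7.17 to 146 per Mb. Amplification of GC-rich fragments was not measured in these data, and its part was not tested.

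CpG was sparse at the sites. The median observed over expected CpG was 0.155 (quartiles 0 and 0.314), close to the 0.168 of gene-body windows. The kinds of member departed from their own windows in opposite directions, with 0.087 at array members against 0.118 in windows with an array, and 0.208 at the others against 0.169 in windows without one. One strand tended to carry most of the G in the arrays, with a median absolute GC skew of 0.229 at array members, 0.189 in windows with an array and 0.143 at members without an array. Runs of G able to form a quadruplex (4 runs of G in close succession) were seen at 2.25% of array members (1.36 to 3.67%) and in 5.03% of window arrays. The order was the other way at members without an array, with 5.05% (3.39 to 7.47%) against 2.38% of windows without one. Over all members the share was 3.38% (2.48 to 4.61%), against 2.42% of windows.

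Short binding-site words were rare at the members. A fixed set of 16 words was searched on both strands in the 200 bp around each summit, without regard to overlaps between words. The YY1 word AAGATGGC was at 1.16% of members (0.678 to 1.97%) and in 1.16% of gene-body windows, while it was at 17.4% of all peaks. The KLF and SP word GGGCGGG was at 1.51% of members, in 1.13% of windows and at 8.69% of all peaks. The ETS word CCGGAAG was at 0.534% of members, in 0.658% of windows and at 8.05% of all peaks. The words that were frequent in the list as a whole were thus infrequent at the members. They were also infrequent at repeat-poor peaks outside genes, with 1.59% for YY1, 2.04% for KLF and SP and 1.02% for ETS. Of the 12541 peaks, 10203 had at least 50% soft-masked bases, so this contrast is not particular to gene bodies. The AP-1 word TGANTCA was at 3.29% of members and in 6.42% of windows, and the TEAD word GGAATG at 6.59% and in 11%. Array members had 2.25% (1.37 to 3.67%) for AP-1 and 4.19% (2.92 to 5.99%) for TEAD, below the shares of all windows. Words were not counted apart in windows with an array, so whether arrays in general hold fewer of these words was not tested. Members without an array had 4.84% (3.21 to 7.21%) and 10.1% (7.67 to 13.2%), intervals that included the window shares. The left part of the site of REST, a repressor that recruits EHMT2, read TTCAGCACC and was at 5 members (0.445%, 0.190 to 1.04%) and in 0.202% of windows. The right part, GGACAGCGC, was at 3 members (0.267%, 0.0909 to 0.782%) and in 0.0397% of windows. Members without an array held 4 of the left (0.879%, 0.342 to 2.24%) and 3 of the right (0.659%, 0.224 to 1.92%). These shares lay above those of the windows but rest on very few peaks. A word that is absent from this window says nothing of the factor's binding.

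Most members were intronic. Introns held 1043 members. The first intron of the longest transcript held 273, or 24.3% of all 1123 members (21.9 to 26.9%), against 23.2% of windows. Exons held 80 (7.12%, 5.76 to 8.78%), where 9.77% of windows were exonic. Array members and the others were in exons about as often as their own kind of window. Exons held 4.19% of array members (2.92 to 5.99%) and 4.98% of windows with an array, and they held 11.4% of the others (8.82 to 14.7%) and 9.88% of windows without one. The first intron held 20.7% of array members (17.8 to 23.9%) against 23.7% of array windows, and 29.7% of the others (25.7 to 34%) against 23.1% of their windows.

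The 80 exonic members comprised 36 in coding sequence, 20 in 3′ UTRs, 9 in 5′ UTRs and 15 in exons of noncoding transcripts of the host gene. The strongest in coding sequence was in exon 4 of Tuba1c, with 11 fragments, and the one in exon 4 of Tuba1a had 10. Both summits occurred 8 times in the assembly, so the tubulin copies cannot be told apart. Single-copy coding sites included exon 21 of Actn1 (alpha-actinin, 9 fragments), exon 15 of Magi2 (a synaptic scaffold, 7), exon 13 of Ptprn (a secretory granule protein, 8) and exon 4 of 4921517D22Rik (6).

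In 10 of the 36 coding members there was a tandem array within 200 bp of the summit. Tro encodes trophinin, an adhesion protein built on repeated decapeptides, and its peak of 8 fragments on the X chromosome lay on a 30-bp unit in exon 12. Muc5ac, a secreted gel-forming mucin, had 8 fragments on a 96-bp unit in exon 31. Triobp, an actin-bundling protein, had 6 fragments on a 72-bp unit in exon 8, and Prol1 had 6 on a 27-bp unit in exon 3. The unit was a multiple of 3 bp, the length of a codon, in 8 of these 10 arrays, against 203 of 640 arrays of intronic members (31.7%, 28.2 to 35.4%). In windows, 60.2% of arrays in coding sequence had such a unit.

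Members lay fewer bases from the gene start than the windows did, but at a similar position relative to gene length. The median member lay 45296 bp from the TSS of its host, and the median window 59331 bp. Along the gene the median position was 52.0% of its length, against 51.5% for windows. Members without an array had their highest density in the first decile of the gene, at 0.840 per Mb (0.638 to 1.09). This interval overlapped that of the seventh decile, at 0.754 (0.576 to 0.971). Array members were at 0.579 per Mb in the first decile (0.414 to 0.789). They were highest in the eighth decile, at 1.09 (0.871 to 1.34), an interval that overlapped those of most other deciles. The amount of array sequence in each decile was not accounted for. Since promoter windows were taken out, the first decile here begins beyond them. A start of some other annotated transcript lay within 500 bp of 55 members (4.90%), which was 8.13% of members without an array and 2.69% of those with one.

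Members were sparser in the longest host genes than in the others. The median host was 113541 bp long, and the median window lay in a gene of 145533 bp. Density was 1.53 members per Mb in genes under 20 kb (1.25 to 1.87), 1.72 at 20 to 50 kb and 1.70 at 50 to 100 kb. It was 1.65 in genes of 100 to 300 kb (1.48 to 1.82), and these intervals overlapped. It was 1.04 in genes of 300 kb to 1 Mb and 0.648 in genes of 1 Mb or longer (0.460 to 0.885). For array members, density was 0.599 per Mb under 20 kb, 1.08 at 100 to 300 kb and 0.282 at 1 Mb or longer. This is per Mb of all eligible gene body, so the amount of array sequence in each length class was not accounted for. Members without an array fell steadily across all length classes, from 0.936 per Mb in genes under 20 kb to 0.365 in the longest.

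**Figure D5:**
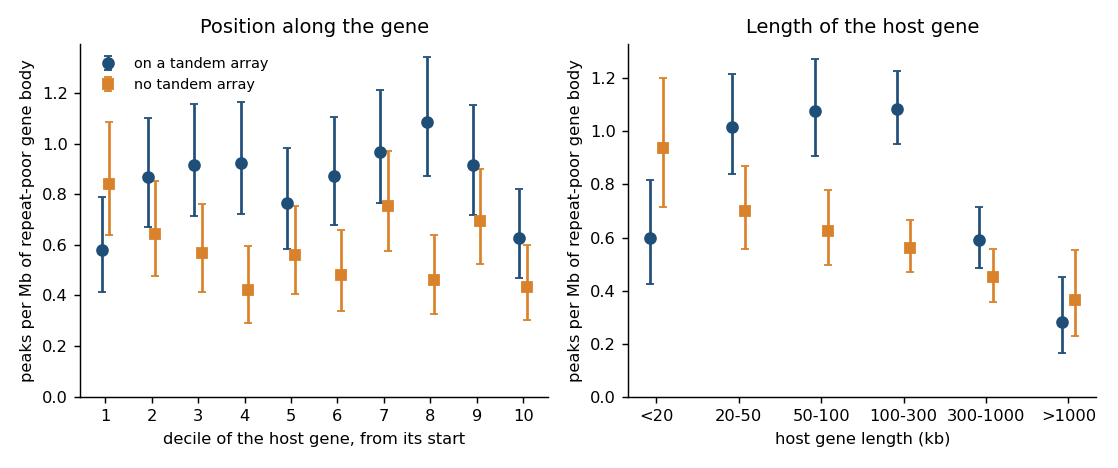
Repeat-poor peaks per Mb of repeat-poor gene body by decile of the host gene from its start (left) and by host gene length (right), for peaks on a tandem array (circles) and without one (squares), with exact 95% Poisson intervals. In genes of 1 Mb or longer both kinds fell below 0.4 per Mb.

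Chromosomes were covered unevenly. Density was between 0.936 (chromosome 10) and 2.31 members per Mb (chromosome 8, 1.86 to 2.83) on autosomes. The X chromosome held 10 members, or 0.319 per Mb (0.153 to 0.587), a ratio to autosomes of 0.215 (0.103 to 0.397). How many X chromosomes these cells carry is not given in the sources used here, and its part was not tested. In the last 5 Mb of the chromosomes the density was 1.99 per Mb against 1.41 elsewhere, a ratio of 1.41 (1.09 to 1.80). For array members this ratio was 1.48 (1.06 to 2.02) and for the others 1.3 (0.843 to 1.94). Windows with an array were themselves in the last 5 Mb in 5.41% of cases, within the interval of the 6.44% of array members there (4.81 to 8.56%).

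Members were mostly solitary. The nearest other peak of any kind was a median of 88744 bp away, and 105 members (9.35%, 7.78 to 11.2%) had another summit within 10 kb. This was 12.6% of array members and 4.62% of the others. Over all peaks the share was 18.9% (18.2 to 19.6%), and over repeat-poor peaks outside genes it was 7.49% (5.93 to 9.42%). The 1123 members fell in 972 of the 21755 protein-coding genes, 4.47% of them. Of the hosts, 851 had 1 member, 99 had 2, 16 had 3, 4 had 4 and 2 had 5.

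Camta1 was the gene with the most members by summed significance. Its 5 members had 20, 18, 15, 5 and 5 fragments, spread over introns 3, 5, 6 and 11 of a gene of 944555 bp, and 3 of them were arrays with units of 32, 34 and 118 bp. The first 3 were thus well above the median member, and the last 2 were below it. The other gene with 5 members, Gm20388, is a predicted record of 4434882 bp on chromosome 8, whose members all lay in a first intron of 4384418 bp and had 4 to 9 fragments. Members numbering 4 each were found in Atg10 (an enzyme of autophagy, 6 to 17 fragments, all 4 in arrays), Ulk4 (a pseudokinase, 5 to 10), Tiam1 (an exchange factor for RAC1, 4 to 11) and Rasgef1b (a RAS exchange factor, 5 to 8). In each of the last 3 genes, 3 of the 4 members were arrays.

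Gene lists were read against the 4.47% of all protein-coding genes that held a member and against 1.44 members per Mb. Of 73 neuronal adhesion and synapse organiser genes, 19 held a member (26%, 17.3 to 37.1%), 25 members in all. These genes are long, with a median of 791267 bp against 17414 bp for all genes, and their density was 0.526 per Mb (0.340 to 0.777), so that the share and the density lay on opposite sides of the background. Among them, Cdh6 (a cadherin) had a peak of 15 fragments in intron 1, Tenm3 (a teneurin) one of 10 and Cntn3 (a contactin) one of 8. All 3 were arrays, although only 6 of the list's 25 members were.

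Ion channel and receptor genes gave 19 of 73 (26%, 17.3 to 37.1%), with 0.992 members per Mb (0.622 to 1.5). Kcnip4 and Cacna1a, a calcium channel subunit with 17 fragments, led them. Axon guidance genes gave 4 of 43 (9.30%, 3.68 to 21.6%), at 0.388 per Mb (0.106 to 0.992). The strongest, in Ntng1 (a netrin-G protein), had 6 fragments. Developmental transcription factor genes gave 12 of 82 (14.6%, 8.57 to 23.9%), at 1.01 per Mb (0.553 to 1.70). Eya1 had 11 fragments on an array, while Zfhx3 and Nfix had 12 each without one. Signalling genes gave 10 of 67 (14.9%, 8.31 to 25.3%), at 0.949 per Mb (0.505 to 1.62). They included Prkg1 with 17 fragments, Plcb1 with 10 and Pde4d with 7, all on arrays. In each of these lists the share was above 4.47% and the density below 1.44 per Mb. Only the density interval of the axon guidance list lay wholly below 1.44. Median gene lengths were 363814, 205564, 145748 and 101737 bp in the order given, against 17414 bp for all genes.

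Genes of the H3K9 pathway and of mESC identity were hosts at shares close to the 4.47% of all genes. Among 38 genes of the EHMT2 complex, its recruiters and other H3K9 or DNA methylation regulators, 2 held a member (5.26%, 1.46 to 17.3%), each on an array. These were Pphln1, encoding a subunit of the HUSH silencing complex, with 10 fragments, and Cdyl2, encoding a chromodomain protein, with 8. Of 25 pluripotency genes, only Nr5a2 held one (4%, 0.71 to 19.5%), with 4 fragments. Germline and meiosis genes gave 3 of 41 (7.32%, 2.52 to 19.4%), Stra8 (8 fragments), Ddx4 (6) and Dmc1 (4). Imprinted genes gave 5 of 43 (11.6%, 5.07 to 24.5%), a share above 4.47%, at 2.55 members per Mb (0.935 to 5.54). Their median length was 39210 bp, against 17414 bp for all genes. Among their peaks were those in Gnas with 6 fragments, Copg2 with 5 and Kcnk9 with 4. None of the 20 two-cell-stage genes held a member, but they offered only 0.148 Mb of eligible sequence, for which a count of 0 allows up to 25 per Mb (exact Poisson). In all of these short lists the density interval included 1.44 per Mb.

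At the edge of the masking limit, the 3 members just inside were in Nmnat2 (49.8% soft-masked, 5 fragments), 2610021A01Rik (49.5%, 6) and Slc1a2 (49.4%, 7). The 3 gene-body peaks just outside were in Cdkal1 (50.5%, 8 fragments), Ash1l (51%, 4) and Naa25 (51%, 5). Peaks on either side of the limit thus had similar pileups.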

How the data were processed

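EHMT2 occupancy was measured by anti-HA ChIP-exo in 2 replicates of DMSO-treated EHMT2-dTAG mESCs. The authors aligned trimmed reads to mm10 with STAR 2.7.10 (multimapping reads written once, at a random best site), removed duplicates with Picard 2.26.0 and ENCODE high-signal regions with SAMtools 1.14, and called peaks with MACS2 2.2.6 on the merged replicates without a control. Versions are from the submitters' processing notes. The deposited list gives each peak's position and summit, its fold enrichment (a ratio deposited by the authors), and the −log10 p-value and −log10 q-value deposited by the authors. Total reads per library are not in this list, so depth was read only as the fragments at each summit.

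Sequence and soft-masking were from GRCm38.p6, which has the coordinates of mm10, and genes from GENCODE vM21. The origin of the soft-masking was not stated. Intron numbers refer to the longest transcript. Fragments were solved from fold and p-value, matching −log10 p within 0.0001 plus a small allowance that grew with −log10 p. The simulated pileup was among the solutions in 300 of 300 trials. Copies of the central 50 bp were counted as exact matches on both strands. Tandem arrays were ungapped self-matches at a spacing of 8 to 150 bp in the 400 bp around a summit or window centre (match 1, mismatch −3, score at least 50), found in 100 of 100 simulated arrays at each of 3 unit lengths and in 0 of 1000 random sequences. Members were aligned with blastn 2.17.0. Analyses used Python 3.11.15, numpy 2.4.6 and scipy 1.17.1.

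The members and gene lists were chosen with earlier results of these data known. Named were the 10 members with the highest −log10 q, up to 10 in coding sequence, up to 8 genes with 3 or more members, up to 3 members per list, and 3 peaks on either side of the masking limit. Of the 8 genes, Ak5 and Greb1l had 3 members each. Other named peaks were chosen after their values were seen.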

Additional observations from a re-analysis of the deposited data

How the results depend on the processing

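Of 114 values recomputed under 13 alternatives for 14 results, 77 stayed within the main interval (counts within 1.5 times) and 37 moved. With q at most 0.01, the median fold was 5.18, the unique 50-bp share 56.7%, mean GC 50.6%, the share of protein-coding genes with a member 3.45% and the tandem array share 66.9%. With q at most 0.001, 518 members remained, with a median fold of 5.84, 8 fragments, a unique share of 45.9%, 4.44% in exons, GC of 51.4%, CpG observed over expected of 0.122, an inside to outside density ratio of 1.79, 11.6% with a summit within 10 kb, 2.23% of genes and 79.3% in arrays. Under 25% soft-masked bases, the unique share was 60.7%, GC 50.5%, genes 3.71% and arrays 63.0%. With no soft-masked base there were 651 members, with a fold of 4.89, a unique share of 52.1%, GC of 51.7%, 12.4% near another summit, 2.68% of genes and 70.8% in arrays. With unique summits only there were 715 members, with a fold of 4.40, GC of 47.9%, CpG of 0.178, 5.17% near another summit, 3.03% of genes and 39.6% in arrays. A unique 100 bp was found at 81.3%. Arrays were at 51.2% of members with a score of at least 100 and at 55.5% with units of at least 13 bp. The other promoter windows and the merging of peaks less than 10 kb apart moved no value. The array share and its alternatives were chosen after seeing the data. The density ratio was not computed for unique summits. No paired analysis was possible because a pooled list carries no replicate numbers, and no replicate could be left out. With a median of 6 fragments, 1 fragment more or less changes a member's rank, and weak sites below the threshold were not detectable at this depth.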
